A study of Caenorhabditis elegans with 4 samples.

Results

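The X chromosome of Caenorhabditis elegans carried 176 of the 1251 regions that a ChIP-seq experiment against the kinetochore protein MIS-12 yielded in the list deposited for the series as a whole, called the combined list below. It also carried 87 of 694 regions in the list of ChIP replicate 1 and 98 of 746 in that of ChIP replicate 2. Members were all peaks whose chromosome field read X, and their strength played no part in the choice. The chromatin source was mixed-stage embryos (strain N2, wild-type genotype), taken from gravid adults in liquid culture at 20 degrees Celsius, from a population with both males and hermaphrodites. Living embryos were fixed in formaldehyde, and the sonicated extract was precipitated with SDQ2966, an affinity-purified polyclonal rabbit antibody to a fragment of MIS-12. There were 2 ChIP samples and 2 input samples, all of the same strain, genotype and stage. The input samples were not analysed here, so no background stands beside any peak, and the labels do not give the share of males or say whether replicates were separate cultures.

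MIS-12 belongs to the outer kinetochore network that, with KNL-1 and the NDC-80 complex, ties chromosomes to spindle microtubules. C. elegans chromosomes are holocentric: kinetochores assemble along their whole length rather than at one point, on chromatin marked by the CENP-A variant of histone H3. Hermaphrodites carry a pair of X chromosomes and males a single one, and in hermaphrodite embryos the dosage compensation complex lowers transcription from X. A mixed-stage embryo preparation holds cells in all phases of the cell cycle, while kinetochores of this type are built for mitosis.

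The peaks are given here by position in genome build WormBase WS220, which the file headers name for all 3 lists. No genome sequence or gene annotation of that build was used, so neither the genes nor the DNA sequence under the peaks are given. Each peak has a score from the peak caller, whose definition is not stated. In the replicate lists it starts just above 50, and several X peaks stand at exactly 3100. Whether 3100 is an upper limit of the score is not stated. Peaks at 3100 therefore cannot be ranked by strength, and ties there need not mean equal strength. In the combined list the score ran on X from 1.89 to 58.3, another scale, so scores are compared within a list or between the replicates only. The files hold no read counts, the depth behind each peak is unknown, and all intervals below cover counting error only.

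The strongest MIS-12 regions of X were spread from the left end to the right arm, and every one of the 10 highest-scoring combined peaks was found in both replicates. How the combined list was made is not stated, and it may rest on the same ChIP samples. Overlap of combined peaks with replicate peaks, here and below, is therefore not independent support. The 10 peaks are described in order of combined score. They scored 33.7 to 58.3 and were 722 to 5484 bp wide. The highest, at X:11441825-11443761, scored 58.3, which was also the highest score of the whole combined list. Its replicate peaks were narrower and began further right. Replicate 1 had X:11442077-11443758 with a score of 1707, and replicate 2 had X:11442561-11443741 with 2143. These were only the 9th and the 12th scores on X in their own lists, so the order of the strongest regions differed between the combined list and the replicates.

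The next was a compact peak at X:5056150-5057273, with a combined score of 49.7 and replicate scores of 2766 and 2847. It was followed by X:1644020-1644741, which at 722 bp was the narrowest of the 10, with 48.0 in the combined list and 903 and 1001 in replicates 1 and 2. In both regions the replicate scores lay close together. A pair of wider regions followed on the left arm, X:1752196-1755118 (2923 bp, combined score 43.8) and X:109467-114299 (4833 bp, 43.6). Both stood at 3100 in each replicate. The region at X:11886337-11888201 (1865 bp, 41.0) held the highest listed score of any replicate 1 peak on X, 3121, against 2511 in replicate 2. That score is just above the repeated 3100, so it does not show a stronger region than those at 3100.

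Of the remaining 4 members, 3 had a higher score in replicate 2. X:289820-295303 (5484 bp, combined score 39.2) scored 1390 in replicate 1 and 3100 in replicate 2. X:9184884-9188727 (3844 bp, 37.5) was called as 1 peak at 3100 in replicate 2 and as 2 adjoining peaks in replicate 1, with scores of 2171 and 1456. X:15807449-15811170 (3722 bp, 34.5) reached 3100 in both. X:14908009-14909341 (1333 bp, 33.7) scored 1851 and 2999. Of the 10 regions, 5 lay in the left, 2 in the middle and 3 in the right part when X was divided into 3 parts of 5.90 Mb, and replicate 2 had the higher score in 6, with 3 ties at 3100.

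Scores of 3000 or more were reached by 4 X peaks of replicate 1 (of 25 in its whole list) and by 6 of replicate 2 (of 36). The regions at X:109173-114334, X:1752217-1755126 and X:15806904-15811278 (replicate 1 positions) had such scores in both lists. The fourth of replicate 1 was the 3121 peak named above. The other 3 of replicate 2 were X:289845-295297, X:9184908-9188740 and X:14384698-14389758. In replicate 1 these scored 1390, 2171 and 1870.

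Peaks on X ranged from 121 to 8269 bp in width, and a few wide ones made up much of the total length. Median widths were 283 bp in the combined list, 370 bp in replicate 1 and 342 bp in replicate 2, and 54.0%, 39.1% and 43.9% of peaks were under 300 bp. Peaks of 2000 bp or more numbered 12, 10 and 10 and held 41.5%, 52.9% and 51.8% of the 115, 78.9 and 81.1 kb covered. They made up 6.82%, 11.5% and 10.2% of the X peaks. These shares lay inside the autosomal ranges of 4.59% to 8.29%, 3.39% to 12.9% and 2.73% to 12.5%. Wide and high-scoring were not the same thing. The widest combined peak, X:10361033-10369199 (8167 bp), scored 21.8 in the combined list. Replicate 1 called it as a single peak of 8269 bp (score 1614). Replicate 2 split off 161 bp at its left edge (score 79.9) from a peak of 8027 bp (score 2059). The next widest were X:289820-295303, X:14384638-14389781 (5144 bp, combined score 27.9), X:109467-114299 and X:9184884-9188727, and each had scores of 1390 or more in both replicates.

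Of the replicate 1 peaks on X, 55 of 87 (63.2%, Wilson 95% interval 52.7 to 72.6) shared at least 1 bp with a replicate 2 peak, where 60.8% of replicate 1 peaks did over all nuclear chromosomes. In the other direction it was 54 of 98 (55.1%, 45.2 to 64.6), against 56.2% over all nuclear chromosomes. In the combined list 52 of 176 X peaks (29.5%, 23.3 to 36.7) overlapped peaks of both replicates, against 27.1% overall. No difference in sharing between X and the autosomes was detectable. On the autosomes the shares were 60.5%, 56.4% and 26.7%, and X minus autosomes was 2.76 (95% Newcombe interval -8.40 to 12.9), -1.31 (-11.9 to 8.91) and 2.87 (-3.95 to 10.4) percentage points (Fisher's exact test, two-sided, adjusted p = 0.828 for each over the 3 tests). Peaks lie in groups and are not independent, so these intervals are too narrow. The order by chromosome did not set X apart either. In replicate 1 the share was higher on IV (68.1%), in replicate 2 it was higher on 3 autosomes, and in the combined list X had the highest share by a margin smaller than its interval (IV, 29.1%).

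**Figure D1:**
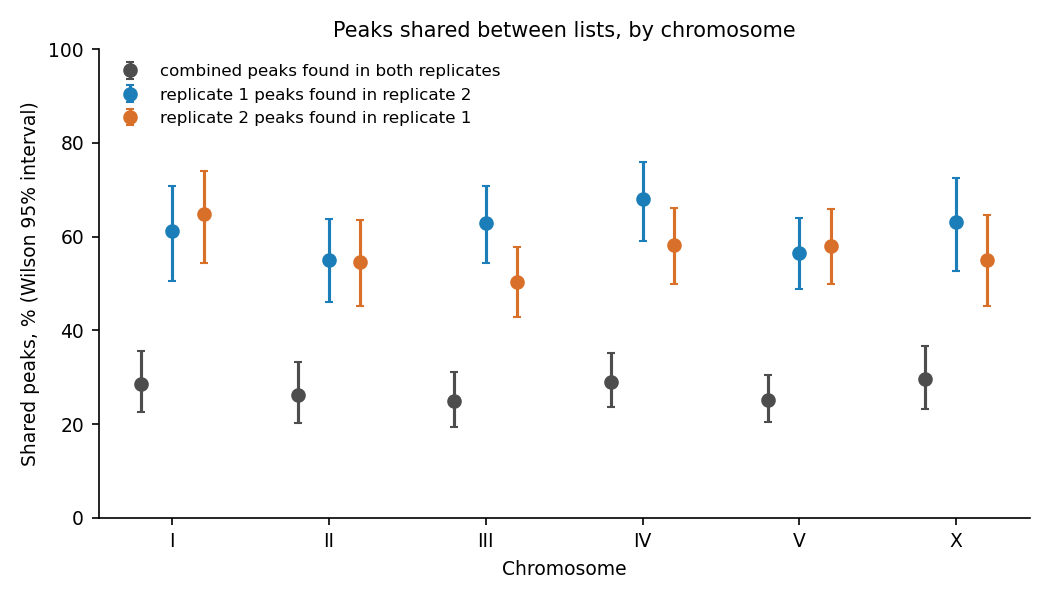
Percent of peaks shared between lists on each chromosome (points) with Wilson 95% intervals (bars), for combined peaks found in both replicates and for peaks of each replicate found in the other. X, at 29.5%, 63.2% and 55.1%, lies within the interval of every autosome in each list.

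Sharing on X followed strength. All 22 peaks in the highest-scoring 25% of replicate 1 X peaks (scores of 296 or more) had a replicate 2 counterpart, and so did all 25 of replicate 2 (483 or more) in replicate 1. Among the lowest-scoring 25% it was 5 of 22 in replicate 1 (22.7%, 10.1 to 43.4) and 6 of 25 in replicate 2 (24.0%, 11.5 to 43.4). All 10 peaks of 2000 bp or more were shared in either replicate. Autosomal peaks were not split in these ways, so no trait particular to X is shown. With each list cut to its highest-scoring 50%, sharing was 77.1% on X and 77.3% on the autosomes in replicate 1. In replicate 2 it was 67.9% and 70.8%, and in the combined list 40.7% and 33.5%. Of the 87 replicate 1 peaks, 54 were found in both other lists, 17 in the combined list alone, 1 in replicate 2 alone and 15 in neither. Of the 98 replicate 2 peaks the numbers were 53, 38, 1 and 6. These classes were counted on X only. The single region that both replicates held and the combined list did not was weak, at X:12276010-12276241 in replicate 1 (score 50.9) and X:12276023-12276226 in replicate 2 (78.5).

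Most of the strongest X peaks without a counterpart in the other replicate lay within groups of peaks. In replicate 2 these were X:5046450-5047130 (score 376), X:5048727-5049230 (303) and X:5047872-5048339 (275), all from one group described below. In replicate 1 they were X:7351571-7351974 (171), X:7353244-7353685 (150) and the isolated X:15688050-15688510 (116). All 6 overlapped combined peaks. Peaks found in a single list were weaker: the highest in replicate 1 were X:12277652-12278245 (96.2), X:17280587-17280914 (92.8) and X:17014245-17014531 (67.4), and in replicate 2 X:14362327-14362511 (81.5), X:1195237-1195505 (78.1) and X:7081038-7081226 (67.9).

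Where both replicates called 1 peak each, the calls covered nearly the same bases. This was the case for 40 pairs on X. Their starts differed by a median of 24 bp and their ends by 17 bp, the shared part was a median of 93.3% of the bases covered by either, and it was 90% or more in 24 pairs. The least alike was X:7355268-7355580 in replicate 1 with X:7355501-7355661 in replicate 2, which shared 20.3%. Scores in these pairs had a Spearman rho of 0.85. Over all 55 replicate 1 peaks with a counterpart, set against the highest replicate 2 score they overlapped, rho was 0.73 and Pearson's r of log10 scores 0.78. These are descriptions over peaks of the same 2 libraries, and a replicate 2 score recurs where several replicate 1 peaks meet it. Replicate 2 had the higher score in 40 of the 55, replicate 1 in 12, and 3 were equal. At the median the replicate 2 score was 1.54 times that of replicate 1. Setting each peak against the highest score it overlaps favours replicate 2, and in the 40 pairs of single peaks the median was 1.28, with replicate 2 higher in 27. Since depth and the score's definition are unknown, these scores cannot show whether MIS-12 recovery differed.

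The pairs whose ranks lay furthest apart were of contrasting kinds. At X:1636085-1638627 replicate 1 scored 715 and replicate 2, with almost the same bounds (X:1636110-1638600), 118. The combined list split this region into 3 peaks of 12.5, 3.85 and 4.39. At X:5914588-5914816 and X:5913858-5914126 replicate 1 had small peaks of 74.9 and 50.2, and the wider replicate 2 peaks that overlapped them scored 1148 and 481. In the first region the bounds were alike and the scores apart, and in the second a single combined peak (X:5913247-5915798, 22.2) was called as 5 peaks in replicate 1 and 2 in replicate 2.

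**Figure D2:**
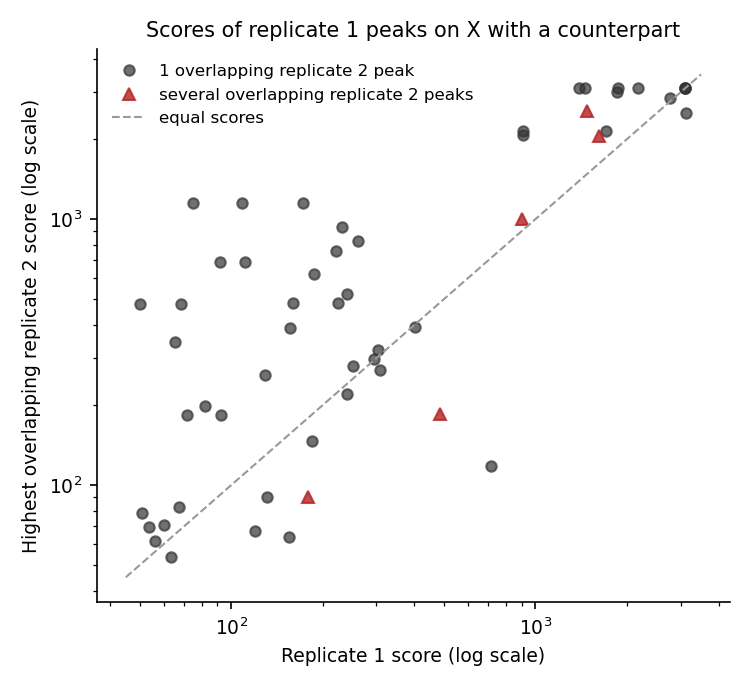
Score of each of the 55 replicate 1 peaks on X with a counterpart (horizontal, log scale) against the highest replicate 2 score it overlapped (vertical, log scale). Triangles mark the 5 peaks that met several replicate 2 peaks, and the dashed line marks equal scores. 40 points lie above the line, and the point furthest below it is the region scoring 715 and 118.

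The combined list also held many weak X peaks that neither replicate list contained. They numbered 90 of 176 (51.1%, 43.8 to 58.4), where 52.0% of combined peaks on the autosomes (49.0 to 54.9) were found in neither. Those on X scored a median of 3.98 with 194 bp as their median width, and together covered 19.5% of its sequence on X. The 52 peaks found in both replicates scored a median of 18.9, were 720 bp wide at the median and covered 68.2%. Another 13 were found in replicate 1 only (median score 5.06) and 21 in replicate 2 only (7.56). None of the 48 lowest-scoring combined peaks (3.61 or less) was found in both replicates, and 38 of the 44 highest-scoring (10.7 or more) were. This split by score was made on X only. The strongest combined peaks on X found in neither replicate were X:351515-351785 (10.2), X:489771-489967 and X:13121023-13121340 (8.72 each). Of the 90, 24 lay within 2 kb of a replicate peak and 19 lay more than 100 kb from any. The median distance to the nearest replicate peak was 28397 bp.

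**Figure D3:**
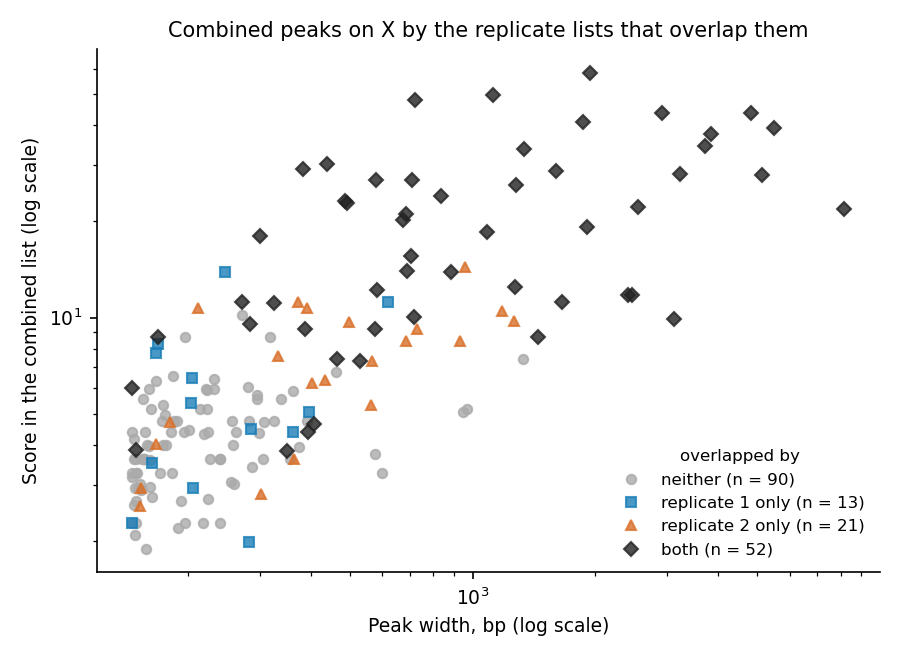
Width (horizontal, bp, log scale) and score (vertical, log scale) of the 176 combined peaks on X, marked by the replicate lists that overlap them. The 52 peaks found in both replicates include the 12 of 2000 bp or more and reach down to a score of 3.83 and a width of 146 bp, and the 90 found in neither lie at scores of 10.2 or less.

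Peaks of X came in groups. Joining peaks with at most 2 kb between them left 112 loci in the combined list, 62 in replicate 1 and 55 in replicate 2. Of these, 30, 13 and 17 held several peaks, which together made up 53.4%, 43.7% and 61.2% of the X peaks. Grouping was not particular to X. Peaks per locus were 1.57, 1.40 and 1.78 on X, inside the autosomal ranges of 1.54 to 1.85, 1.39 to 2.02 and 1.72 to 3.71. Shared loci were 41 of 62 in replicate 1 (66.1%, 53.7 to 76.7), 41 of 55 in replicate 2 (74.5%, 61.7 to 84.2) and 41 of 112 in the combined list (36.6%, 28.3 to 45.8). On the autosomes 58.2%, 70.1% and 30.7% of loci were shared, and the differences from X did not pass the test (Fisher's exact test, two-sided, adjusted p = 0.399, 0.629 and 0.399). When the peaks of all lists were joined in the same way X had 126 loci, of which 41 held peaks of all 3 lists and 52 of the combined list alone. Of the 42 loci with peaks in both replicates, 27 held equal numbers in each, 9 more in replicate 2 and 6 more in replicate 1.

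The largest group on X was called in replicate 2 and the combined list but not in replicate 1. Replicate 2 had 13 peaks at X:5045766-5054049, with scores of 61.7 to 376 and a median of 160. The combined list had 9 peaks there (X:5045616-5054033), with scores of 2.94 to 14.4. Replicate 1 had none in this stretch. The group ends close to the X peak with the second-highest combined score. From the last peak of the group it was 2116 bp to that peak in the combined list and 2129 bp in replicate 2. Replicate 1 called that neighbour at 2766 and replicate 2 at 2847, ranks 5 and 8 on X in their own lists. The replicates therefore agreed at the compact peak and differed over the 8434 bp to its left. Without this group, the share of replicate 2 X peaks found in replicate 1 was 63.5% instead of 55.1%. None of its 13 peaks had a replicate 1 counterpart, so leaving them out could only raise this share.

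A second group had peaks in every list, but those of replicate 1 and replicate 2 seldom overlapped each other. The combined list had 7 peaks at X:7351415-7361169, which covered 93.8% of 9755 bp. Replicate 1 had 7 peaks (X:7351571-7359348, scores of 53.6 to 171) and replicate 2 had 6 (X:7352342-7359629, 62.0 to 138). Only 2 peaks of each overlapped one another. The replicate peaks covered 24.1% and 18.2% of the 8059 bp they span together, against 94.8% for the combined list.

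**Figure D4:**
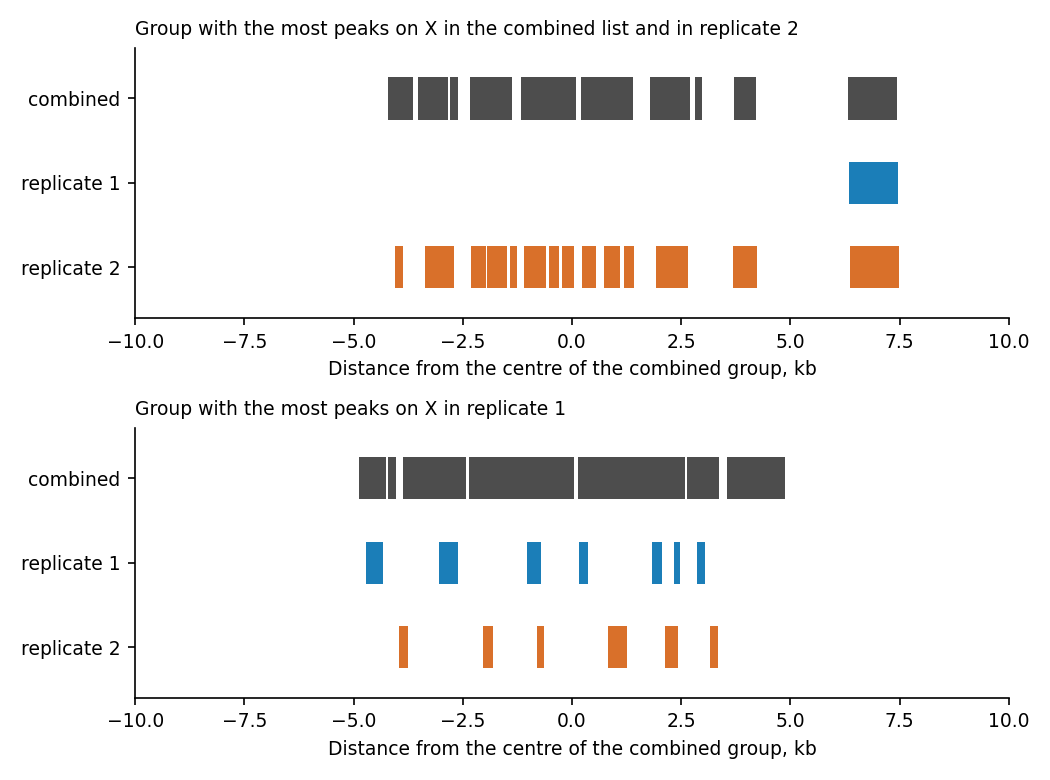
Peaks of each list (bars, to scale) in 2 groups on X, by distance in kb from the centre of the combined group. Above, replicate 1 lacks the 13 replicate 2 peaks and holds only the neighbouring strong peak at the right. Below, 7 peaks of replicate 1 and 6 of replicate 2 lie scattered along a stretch that combined peaks cover almost wholly.

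The other large groups were uneven as well. At X:16932835-16938686 the combined list had 8 weak peaks (up to 6.36), replicate 1 had 1 (53.0) and replicate 2 had 3 (up to 80.5), and no combined peak there was found in both. At X:2056884-2062688 the combined list had 7 peaks, of which the leftmost pair (23.2 and 22.8) was found in both replicates. Replicate 1 had 5 peaks in its own group there (X:2055495-2061777) and replicate 2 had 3 that overlapped the span of the combined group. At X:1136501-1140088 the combined list had 5 peaks of up to 6.07 and the replicates had none. Replicate 2 had 7 peaks at X:1883453-1887694 (61.7 to 271), where replicate 1 had 2 (56.0 and 71.3) and the combined list had 4, the first of them 3115 bp wide. At X:4025985-4030801 replicate 1 had 3 peaks and replicate 2 had 4, led by scores of 1472 and 2557. In replicate 2, 4 peaks lay at X:188486-189780 (52.7 to 101), where the combined list had 1 peak of 1660 bp and replicate 1 had 1 of 384 bp.

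Splitting of regions differed between lists. In the combined list 14 X peaks overlapped several replicate 2 peaks (up to 6) and 6 overlapped several replicate 1 peaks (up to 5). Conversely, 5 replicate 2 peaks and 3 replicate 1 peaks overlapped several combined peaks. A count of peaks on X therefore depends on how each region was divided.

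MIS-12 peaks were most frequent on the left part of X in all 3 lists. In the combined list the left part had 83 peaks, or 14.1 per Mb (exact Poisson 95% interval 11.2 to 17.4), the middle 44, or 7.46 (5.42 to 10.0), and the right 49, or 8.31 (6.15 to 10.99). Replicate 1 had 39, 27 and 21 peaks, or 6.61 (4.70 to 9.04), 4.58 (3.02 to 6.66) and 3.56 (2.20 to 5.44) per Mb, with intervals that overlap. Replicate 2 had 53, 28 and 17, or 8.99 (6.73 to 11.8), 4.75 (3.16 to 6.86) and 2.88 (1.68 to 4.62) per Mb, and there the left part stood clear of the right but overlapped the middle. Here and below, overlap of such intervals does not show that parts are alike, and no test between parts was made. The first 3 Mb, 17.0% of X, held 31.2% of combined, 31.0% of replicate 1 and 32.7% of replicate 2 peaks. This cut was not planned in advance and no autosome was cut in the same way, so these shares carry no test. Covered sequence had the same order in each list, with 50.5, 40.1 and 24.8 kb in the left, middle and right parts of the combined list, 34.0, 27.0 and 17.8 kb in replicate 1 and 38.3, 26.9 and 15.9 kb in replicate 2.

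Counted as loci the slope was less steep. The combined list had 47, 27 and 38 loci in the left, middle and right parts, replicate 1 had 29, 13 and 20, and replicate 2 had 27, 14 and 14. The 95% intervals of left and right overlapped in each list (for the combined list, 5.86 to 10.6 and 4.56 to 8.84 loci per Mb). Without the group at X:5045766-5054049 the left part of replicate 2 had 40 peaks, close to the 39 of replicate 1. The combined list then had 74 on the left, or 12.5 per Mb (9.85 to 15.8), an interval that overlapped that of its right part. The 42 loci that both replicates held numbered 20 on the left, 10 in the middle and 12 on the right. An excess on the left was not seen on X alone. In replicate 2 the ratio of left to right peaks was 3.12 on X and 4.13 on II, and in replicate 1 it was 1.86 on X and 1.62 on II. In the combined list it was 1.69 on X and 0.616 to 1.08 on the autosomes. With 1 X chromosome among 6, these ratios carry no test.

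**Figure D5:**
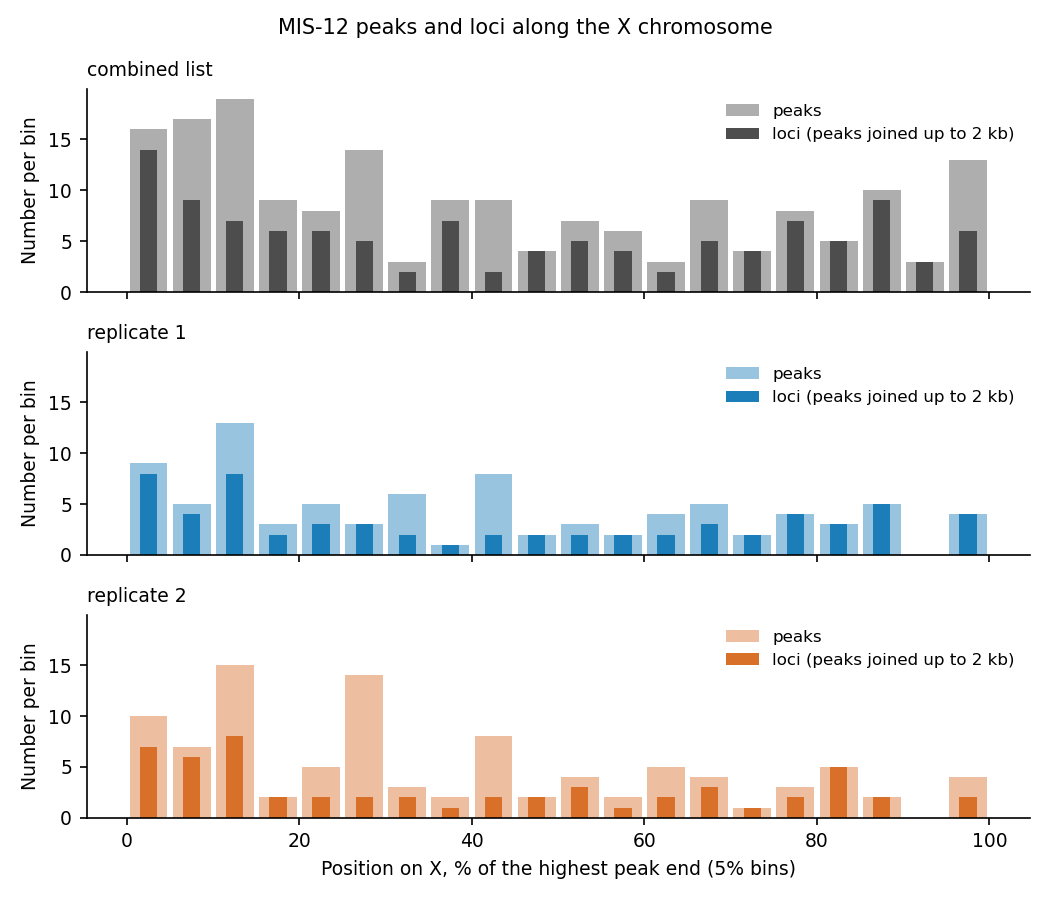
Number of peaks (wide pale bars) and of loci of peaks joined up to 2 kb (narrow dark bars) in 5% bins of X, by list. Bins on the left hold the most peaks, and the tall replicate 2 bin between 25% and 30% holds the 13-peak group, which counts as 1 locus.

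The middle of X had fewer peaks per Mb than its ends in the combined list, with a ratio of 0.67 (exact 95% interval 0.46 to 0.94), but in the highest-scoring 50% of that list the ratio was 0.73 and its interval (0.43 to 1.19) included 1. The middle and right parts of the combined list, at 7.46 and 8.31 peaks per Mb, had overlapping intervals. In the replicates the ratio was 0.90 (0.55 to 1.44) and 0.80 (0.50 to 1.26), intervals that include 1. Counted as loci, the ratio was 0.64 (0.40 to 0.990) in the combined list. In replicates 1 and 2 it was then 0.53 (0.26 to 0.993) and 0.68 (0.34 to 1.28). A further setting took the middle 50% of X against the outer 25% at each side. There the ratio was 0.63 (0.46 to 0.86) in the combined list, 0.71 (0.45 to 1.10) in replicate 1 and 0.85 (0.56 to 1.29) in replicate 2. In both replicates the right part of X had fewer peaks per Mb than the middle, with overlapping intervals. This order did not hold for loci: replicate 1 had 13 in the middle and 20 on the right, and replicate 2 had 14 in each. All 17 complete 1-Mb windows of X held peaks of each list. The replicates' peak counts over these windows correlated with rho 0.68 (Spearman) and r 0.84 (Pearson), as descriptions over windows of the same libraries.

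At the very left end all 3 lists had a peak. It spanned bases 1 to 325 in the combined list (score 11.1), 1 to 338 in replicate 1 (296) and 3 to 329 in replicate 2 (298), so the replicates differed little here. The last replicate peaks, X:17311376-17311798 (260) and X:17311399-17311824 (830), matched a combined peak of 30.2. The last combined peak, X:17691305-17691462, was the weakest of the list on X (1.89) and had no counterpart. Repeated sequence at the left end was not examined.

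Compared with the autosomes, X had fewer peaks per Mb and mostly fewer loci per Mb, but its peaks were not narrower. Peaks per Mb were lower on X than on all 5 autosomes in each list. They were 9.95 in the combined list (autosomes 11.3 to 14.9), 4.92 in replicate 1 (5.64 to 9.21) and 5.54 in replicate 2 (5.84 to 12.1). In the replicates the lowest autosome was close to X, and these differences were not tested. Loci per Mb were lower than on all 5 in the combined list (6.33 against 7.17 to 8.12) and in replicate 1 (3.50 against 4.05 to 4.74), whereas in replicate 2 (3.11) chromosome II was lower at 2.76. The median width of X peaks was at or near the top, with 370 bp in replicate 1 against 276 to 369 bp on the autosomes, 342 bp in replicate 2 against 261 to 372.5 and 283 bp in the combined list against 244.5 to 293.5. Median scores were 111 in replicate 1 (autosomes 81.1 to 97.4), 153 in replicate 2 (116 to 177) and 5.24 in the combined list (5.16 to 5.59). Covered sequence per Mb lay inside the autosomal range in each list. It was 6.53 kb in the combined list against 6.36 to 9.91, with 4 of the 5 autosomes above X. In replicate 1 it was 4.46 kb against 3.70 to 6.02 and in replicate 2 4.59 kb against 3.45 to 6.42, with 3 autosomes above X in each. The largest group on X had 9, 7 and 13 peaks in the combined list, replicate 1 and replicate 2, against 9 to 43, 5 to 28 and 7 to 39 on the autosomes. It was exceeded on 4, 3 and 3 of the 5 autosomes. A test with chromosomes as units cannot decide with a single X, and none was made for widths or scores.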

How the data were processed

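Peak lists of 2 MIS-12 ChIP samples and 1 list for the whole series were analysed as deposited. Per the file headers, coordinates refer to WormBase WS220, replicate peaks came from MACS (version not given) and the combined list from MACS v2. The deposited value of each peak is the authors' score. For aligner, threshold, control and pooling, nothing is given in the sources used here. A gene table of another build (WBcel235) was not used. Midpoints of X peaks that cover 50% of each other (combined minus replicate) differed by medians of -47 to -15.8 bp in the 3 parts of X, with no steady drift, so matching by position was kept.

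Lists were kept apart and matched by 1 bp overlap with Python 3.11.15, numpy 2.4.6, pandas 2.3.3 and scipy 1.17.1. The highest peak end (17691462) served as the length of X. Shares have Wilson and densities exact Poisson intervals. Sharing on X and the autosomes was compared by Fisher's exact test with Benjamini-Hochberg adjustment over 3 tests. The matching and test code was tested on simulated lists. The mitochondrial peaks were left out of these comparisons.

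Named regions are the 10 highest and 5 widest combined peaks, replicate scores of 3000 or more, the 5 loci with most peaks, the strongest unmatched peaks, the first and last peaks and the 3 pairs furthest apart in rank. Other named regions were chosen after their values were seen, as were joining all lists and leaving out the largest group. Members, regions and tests were chosen with earlier results of these data known.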

Additional observations from a re-analysis of the deposited data

How the results depend on the processing

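Of 49 recomputed values, 33 kept their reading. With 50% reciprocal overlap the share of replicate 1 X peaks found in replicate 2 was 51.7%, and that of combined X peaks found in both replicates 19.9%. With each list cut to its highest-scoring 50% the shares were 77.1% (replicate 1), 67.9% (replicate 2) and 40.7% (combined). Counted as loci, replicate 2 sharing was 74.5%. Requiring 1 replicate only gave 41.5% of combined peaks (without replicate 1) and 36.9% (without replicate 2). The rank correlation of scores was 0.82 with 50% reciprocal overlap and 0.59 without scores of 3000 or more. The ratio of middle to ends of X for replicate 1 was 0.53 (0.26 to 0.993) for loci, an interval that no longer included 1, and for the combined list 0.73 (0.43 to 1.19) in the highest-scoring 50%, one that now did. The difference in sharing between X and the autosomes changed sign for replicate 1 in the highest-scoring 50% (-0.17 points), and for replicate 2 with 50% reciprocal overlap (2.02), for loci (4.45) and without the 13-peak group (7.12, an alternative chosen after seeing the data). That group was left out on X while autosomal groups were kept, and all its peaks were unshared. Its removal could therefore only raise the difference, and that sign change carries no weight. The lowest adjusted p of these Fisher's exact tests was 0.366. The causes were not tested, beyond what the alternatives themselves remove. No paired analysis was possible because no test compares the ChIP and input samples that share replicate numbers. Depth is unknown, so the absence of a peak from a list does not show absence of MIS-12.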

Other observations

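Long stretches of X held no peaks of a given list, but other lists could have peaks there. For example, X:489771-489967 of the combined list and X:1195237-1195505 of replicate 2 lay within X:330799-1375008, which was empty in replicate 1. In replicate 1 the longest lay at X:15811279-16936083 (1125 kb), X:12607954-13665309 (1057 kb) and X:330799-1375008 (1044 kb). In replicate 2 they were X:12607943-13795039 (1187 kb), X:15811277-16937315 (1126 kb) and X:8182249-9184907 (1003 kb). The first pair of each replicate nearly coincided. In the combined list the longest was X:7361170-8181831 (821 kb). Gaps of more than 500 kb numbered 12, 14 and 7 in replicate 1, replicate 2 and the combined list. At the other extreme, 29.1%, 44.3% and 36.6% of the gaps between neighbouring X peaks were 2 kb or less.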
